A study of Mus musculus with 18 samples.

Results

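Cxcl9, Cxcl10 and Cxcl11 encode the 3 chemokines that bind CXCR3, a receptor carried by activated T helper 1 cells, cytotoxic T cells and natural killer cells. They were followed here in newly transcribed RNA of interferon-treated mouse fibroblasts. The members were all probe sets whose platform annotation gives only Cxcl9, Cxcl10 or Cxcl11. This rule found 5 of the 45101 probe sets of the array, for 3 of the 18193 genes that have a probe set of their own. Cxcl9 and Cxcl11 have 2 probe sets each and Cxcl10 has 1. The probe set with the highest mean log2 intensity stands for its gene and is called the main probe set. This mean runs over all arrays and treatments, so the choice rests in part on the responses themselves.

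The cells were NIH-3T3, an established fibroblast line from mouse embryos. They were pretreated for 15 min with cycloheximide (CHX), which arrests translation, or with DMSO, and then received 100 U/ml IFNγ, 100 U/ml IFNα or neither for 1 h. In all samples 4-thiouridine (4sU, 500 µM) was added for the last 30 min, so that the purified RNA had been made 30 to 60 min after the interferon was added. The 6 treatments were CHX plus IFNγ, CHX plus IFNα, CHX alone, IFNγ, IFNα and mock, each on 3 arrays numbered as replicates 1 to 3. CHX was thus compared with DMSO, and every control also carried 4sU.

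Interferons act through receptors whose kinases phosphorylate STAT proteins. IFNγ leads mainly to STAT dimers that bind gamma-activated sites (GAS) in promoters. IFNα leads mainly to ISGF3, a complex of STAT proteins with IRF9, which binds interferon-stimulated response elements (ISRE). CXCL9 is known as a monokine induced by IFNγ. CXCL10 responds to both interferon types as well as to NF-κB, and CXCL11 is known as an interferon-inducible T cell chemoattractant. When translation is arrested, proteins newly encoded by responding genes cannot feed back on transcription, so the design asks which part of a response needs no new protein.

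The 3 genes lie next to each other on chromosome 5 (assembly GRCm38.p6), within 42.0 kb. Cxcl9 occupies positions 92321331 to 92328079 on the minus strand, Cxcl10 lies at 92346638 to 92348889 on the minus strand, and Cxcl11 lies at 92359544 to 92363296. The RefSeq annotation of this assembly, which is that of the C57BL/6J strain, lists Cxcl11 as a transcribed pseudogene. A further gene, Art3, runs over Cxcl10 and Cxcl11 on the plus strand (92331799 to 92414628). Its start lies 3720 bases from the start of Cxcl9.

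The promoter windows of Cxcl9 and Cxcl10 are printed because Cxcl10 was called with IFNα and with CHX alone and Cxcl9 was not, a difference between genes that was not itself tested. Each window is from RefSeq (GRCm38.p6), holds 250 bases before and 50 bases after the annotated start, and is written 5′ to 3′ along the gene. Capitals mark every match to the motifs searched. The windows are chr5:92328030-92328329 for Cxcl9 and chr5:92348840-92349139 for Cxcl10, both on the minus strand.
Cxcl9: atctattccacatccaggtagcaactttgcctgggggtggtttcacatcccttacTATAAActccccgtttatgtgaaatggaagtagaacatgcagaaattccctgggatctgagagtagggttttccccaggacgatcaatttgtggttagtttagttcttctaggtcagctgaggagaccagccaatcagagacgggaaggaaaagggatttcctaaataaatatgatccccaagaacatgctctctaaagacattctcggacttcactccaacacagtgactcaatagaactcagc
Cxcl10: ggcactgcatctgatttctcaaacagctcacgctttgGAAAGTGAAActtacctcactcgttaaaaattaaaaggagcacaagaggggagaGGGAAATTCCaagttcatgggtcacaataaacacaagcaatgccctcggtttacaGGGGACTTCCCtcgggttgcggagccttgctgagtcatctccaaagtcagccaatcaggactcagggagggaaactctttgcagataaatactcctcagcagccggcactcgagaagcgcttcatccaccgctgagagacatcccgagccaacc

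Motifs of 4 kinds were searched on both strands. The ISRE core was spelled GAAANNGAAA, and GAS was spelled TTCNNNGAA (and also TTCNNGAA and TTCNNNNGAA). The NF-κB consensus was spelled GGGRNNYYCC, with R for A or G, Y for C or T and N for any base. The TATA motif was TATAAA. The Cxcl10 window held 1 ISRE core, GAAAGTGAAA, from 213 to 204 bases before the start. It also held 3 matches to the NF-κB consensus, GGGAAATTCC from 159 to 150 bases before the start and the overlapping GGGGACTTCC and GGGACTTCCC from 104 to 94 bases before it. The Cxcl9 window held none of these and 1 TATAAA, from 195 to 190 bases before the start. No GAS spelling matched in either window. Of the 32851 promoter windows in the RefSeq table, 3.44% held the ISRE core, 8.46% the NF-κB consensus and 13.6% TATAAA. The 3 GAS spellings were held by 8.3%, 8.52% and 6.95%. A match in these windows is a description of the letters and no evidence of binding. The lack of a match is likewise no evidence that an interferon element is absent, as only exact spellings in short windows were searched. The paper's own promoter search used a wider window and scored motifs.

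Intensities are the authors' normalized array values on a linear scale. The median probe set of an array read between 9.6 and 10.8, so a reading near 10 is that of the middle of the array. Of the 45037 probe sets that are not array controls, the 27773 that reached 8.5 on at least 1 array were tested, and all 5 member probe sets were among them. Differences are given as log2 changes with the standard error (SE) of the fit over all 18 arrays (limma, n = 3 arrays for each treatment). A change was called when its Benjamini-Hochberg adjusted p was below 0.01 and it was at least 2-fold. In bulk RNA, more cells transcribing a gene and more transcription in each cell cannot be told apart.

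The 18 arrays had the markers of fibroblasts throughout. All 9 listed fibroblast genes passed the filter and their summed intensity ran from 48741.8 to 67077.1. The 4 endothelial markers stayed below the filter. Of 4 epithelial markers 3 passed, and the list summed to 29.6 to 45.2. Of 10 leukocyte markers 4 passed, with sums of 201.1 to 345.4 on the CHX arrays and 104.9 to 166.7 on the others. Most of this came from Cd68, a lysosomal protein gene, which read 146.3 to 284.1 with CHX and 53.5 to 112.2 without. Of the others that passed, the T cell genes Cd4 and Cd8a read 7.3 to 9.0 and 8.5 to 14.4, and the myeloid gene Lyz2 read 6.6 to 10.1. The defining leukocyte genes Ptprc, Cd3e and Cd3g were at 3.3 to 5.2 on every array. Adgre1, Csf1r and Itgam also stayed below the filter.

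**Figure D1:**
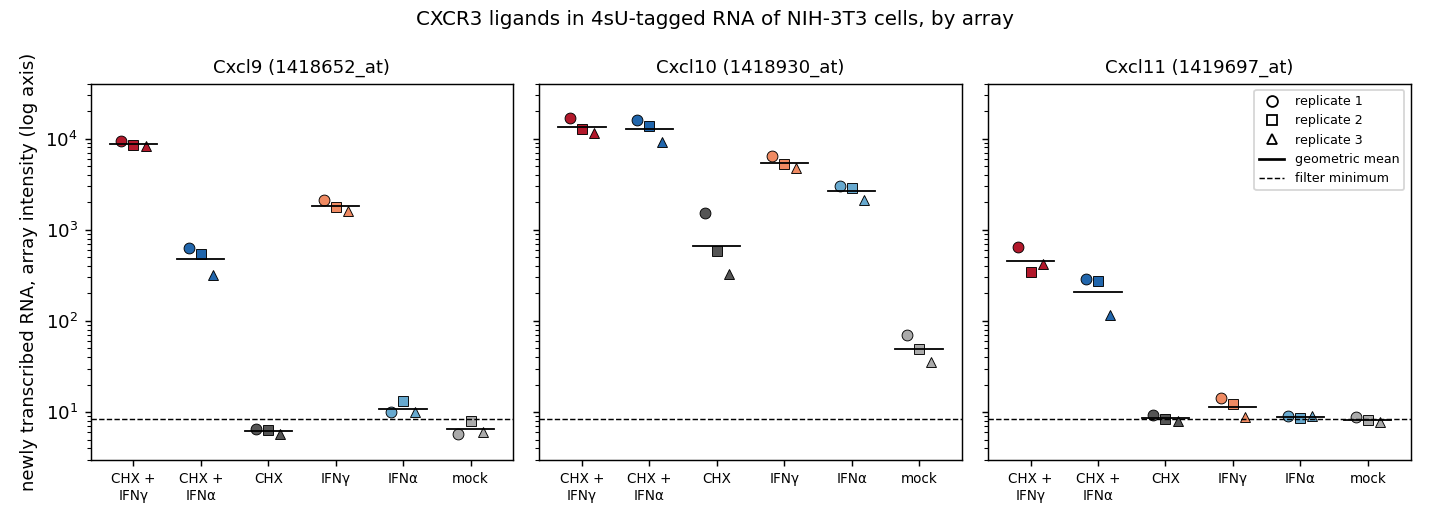
Array intensity of newly transcribed RNA (log axis) for the main probe sets of Cxcl9, Cxcl10 and Cxcl11 on the 18 arrays. Symbols mark replicates 1 to 3, bars the geometric mean of 3 arrays and the dashed line the filter minimum of 8.5; Cxcl10 stood above 35 on every array, while Cxcl9 and Cxcl11 were near the filter minimum in mock and CHX cells.

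Cxcl9 was a gene of the IFNγ response, with a further gain under CHX. Its main probe set (1418652_at) read 2098.7, 1781.9 and 1605.5 with IFNγ, against 5.8, 7.9 and 6.1 in mock cells. The log2 change was 8.12 ± 0.21 (SE, limma adjusted p = 5.97e-12), which is 278-fold. With the 3 mock readings raised to the filter minimum it was at least 214-fold. IFNα gave 10, 13.1 and 10, against the same mock values. These arrays did not overlap the mock arrays, but the change of 0.74 ± 0.21 was not called (limma adjusted p = 0.215). CHX alone gave 6.5, 6.3 and 5.8, which overlapped mock cells (change -0.08, 95% interval -0.53 to 0.37).

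Under CHX, Cxcl9 responded to both interferons. It read 9420.0, 8459.8 and 8315.6 with CHX plus IFNγ, against 6.5, 6.3 and 5.8 with CHX alone, a log2 change of 10.46 ± 0.21 (limma adjusted p = 2.90e-13). This was at least 1026-fold when CHX cells were set to the filter minimum. It read 623.1, 539.8 and 318.7 with CHX plus IFNα, a change of 6.26 ± 0.21 against CHX alone (limma adjusted p = 4.23e-11) and at least 55.9-fold. CHX plus IFNα stood 43.4-fold above IFNα without CHX (5.44 ± 0.21, limma adjusted p = 8.52e-10), and CHX plus IFNγ stood 4.80-fold above IFNγ without CHX (2.26 ± 0.21, limma adjusted p = 4.24e-06). The 6 treatments thus ran, high to low, CHX plus IFNγ, IFNγ, CHX plus IFNα, IFNα, mock and CHX. The neighbours IFNα and mock did not differ by the test, nor did mock and CHX, whose values overlapped.

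The interferon responses of Cxcl9 were larger under CHX. The IFNα response was 5.52 ± 0.30 log2 units larger with CHX than without (limma adjusted p = 7.20e-07), and it was 5.80, 5.69 and 5.07 within replicate numbers 1, 2 and 3. For IFNγ the gain was 2.34 ± 0.30 (limma adjusted p = 0.00183), or 2.00, 2.57 and 2.45 by replicate number. With readings below the filter minimum raised to it, the gains were 5.44 for IFNα and 2.26 for IFNγ. Only mock and CHX readings were raised, so these are the distances of CHX plus interferon from interferon, and no separate check of the gains. The IFNγ gain was no longer called when any replicate number was left out of all treatments (limma adjusted p = 0.0524, 0.281 and 0.0371 without numbers 1, 2 and 3, and from 7.49e-07 to 0.281 over all alternatives). IFNγ and IFNα also differed. IFNγ without CHX stood 166-fold above IFNα without CHX (7.38 ± 0.21, limma adjusted p = 3.78e-11). Under CHX the same distance was 18.4-fold (4.20 ± 0.21, limma adjusted p = 8.35e-09).

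Cxcl10 was above the filter minimum at every treatment and responded to both interferons and to CHX. Its only probe set (1418930_at) read 6398.9, 5230.4 and 4701.3 with IFNγ, against 70.4, 49.1 and 35.6 in mock cells. This was 109-fold (6.76 ± 0.43, limma adjusted p = 1.25e-07). With IFNα it read 3021.8, 2845.5 and 2130.5, which was 53.0-fold above mock cells (5.73 ± 0.43, limma adjusted p = 9.96e-07). No array of the IFNγ and IFNα treatments overlapped, yet the 2.05-fold distance between them was not called (1.03 ± 0.43, limma adjusted p = 0.445). This SE comes from all treatments. The standard deviation of log2 intensity was 0.23 with IFNγ and 0.27 with IFNα, but 1.13 with CHX alone.

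CHX alone also raised Cxcl10. The 3 CHX arrays read 1530.3, 583.5 and 323.5, against 70.4, 49.1 and 35.6 in mock cells, which was 13.3-fold (3.73 ± 0.43, limma adjusted p = 3.59e-05). The lowest CHX array was above the highest mock array. Within replicate numbers 1, 2 and 3 the ratio was 21.7, 11.9 and 9.09. Replicate 1 held the highest Cxcl10 reading in 6 of 6 treatments and replicate 3 the lowest in 6 of 6.

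With CHX and an interferon together Cxcl10 came to its highest readings. CHX plus IFNγ gave 16720.8, 12678.6 and 11406.7, against 1530.3, 583.5 and 323.5 with CHX alone (4.34 ± 0.43, 20.3-fold, limma adjusted p = 7.69e-06). CHX plus IFNα gave 15789.8, 13846.9 and 9236.7 (4.26 ± 0.43, 19.1-fold, limma adjusted p = 1.83e-05). These calls against CHX alone, and that of CHX against mock, were lost in fits restricted to the 6 arrays compared (limma adjusted p = 0.0207, 0.0687 and 0.0149). Over all 31 alternatives the adjusted p of these 3 results ran from 1.88e-07 to 0.0207, from 3.82e-07 to 0.0687 and from 1.28e-06 to 0.0183. The arrays of CHX plus IFNγ and CHX plus IFNα overlapped, and their difference was 0.09 with a 95% interval of -0.83 to 1.00. The levels ran, high to low, CHX plus IFNγ, CHX plus IFNα, IFNγ, IFNα, CHX and mock. Of the neighbours in this order, only IFNα and CHX, and CHX and mock, differed by the test.

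Cxcl10 with CHX plus IFNα stood 4.79-fold above IFNα without CHX (2.26 ± 0.43, limma adjusted p = 0.00172). With CHX plus IFNγ it stood 2.49-fold above IFNγ without CHX (1.31 ± 0.43, limma adjusted p = 0.0385), which was not called, although no arrays overlapped. With the replicate number as a block this difference passed (limma adjusted p = 0.00239), as it did without replicate 1 of CHX alone (adjusted p = 0.00502), and over all alternatives the adjusted p ran from 0.00239 to 0.252. The response to interferon, counted from the matched control, was smaller with CHX than without. The difference was -2.42 ± 0.61 for IFNγ (limma adjusted p = 0.127) and -1.47 ± 0.61 for IFNα (limma adjusted p = 1.00), and neither was called. It was below 0 within each of the 3 replicate numbers for both interferons, between -3.06 and -1.91 for IFNγ and between -2.06 and -1.07 for IFNα. Without replicate 1 of CHX alone the IFNγ difference was -1.81 (limma adjusted p = 0.109, from 0.00707 to 0.940 over all alternatives).

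Cxcl11 was read clearly above the filter minimum only when CHX and an interferon were combined. Its main probe set (1419697_at) gave 641.0, 346.6 and 423.4 with CHX plus IFNγ, against 9.4, 8.3 and 7.9 with CHX alone (5.74 ± 0.30, limma adjusted p = 9.44e-09). With the low CHX readings at the filter minimum this was at least 51.7-fold. CHX plus IFNα gave 284.9, 272.2 and 114.8, at least 23.6-fold above CHX alone (4.61 ± 0.30, limma adjusted p = 1.07e-07). Without CHX the readings were 14.1, 12.3 and 8.8 for IFNγ and 9.1, 8.7 and 9.0 for IFNα, against 8.8, 8.2 and 7.7 in mock cells. These changes were 0.49 with a 95% interval of -0.15 to 1.13 for IFNγ, and 0.12 with an interval of -0.52 to 0.76 for IFNα. CHX alone overlapped mock cells (0.05, interval -0.59 to 0.69).

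For Cxcl11 the interferon response was therefore larger with CHX than without, by 5.25 ± 0.42 log2 units for IFNγ (limma adjusted p = 2.61e-05) and by 4.49 ± 0.42 for IFNα (limma adjusted p = 0.000107). With readings below the filter minimum raised to it, the gains were 5.27 and 4.50. This raised only mock and CHX readings, so it was no check on the readings with interferon alone, which lay above the minimum. Both calls were lost when replicate number 1 or 2 was left out of all treatments (limma adjusted p = 0.0147 and 0.0399 for IFNγ, and 0.0392 and 0.141 for IFNα). Over all alternatives the adjusted p ran from 6.61e-07 to 0.0399 for IFNγ and from 2.45e-06 to 0.141 for IFNα. CHX plus IFNγ stood 39.5-fold above IFNγ without CHX (5.30 ± 0.30, limma adjusted p = 3.89e-08), and CHX plus IFNα 23.2-fold above IFNα without CHX (4.54 ± 0.30, limma adjusted p = 1.96e-07). The arrays of CHX plus IFNγ all exceeded those of CHX plus IFNα, but the 2.19-fold distance was not called (1.13 ± 0.30, limma adjusted p = 0.0329). Below these 2 treatments the order of IFNγ, IFNα, CHX and mock was not resolved, as each neighbouring pair overlapped.

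**Figure D2:**
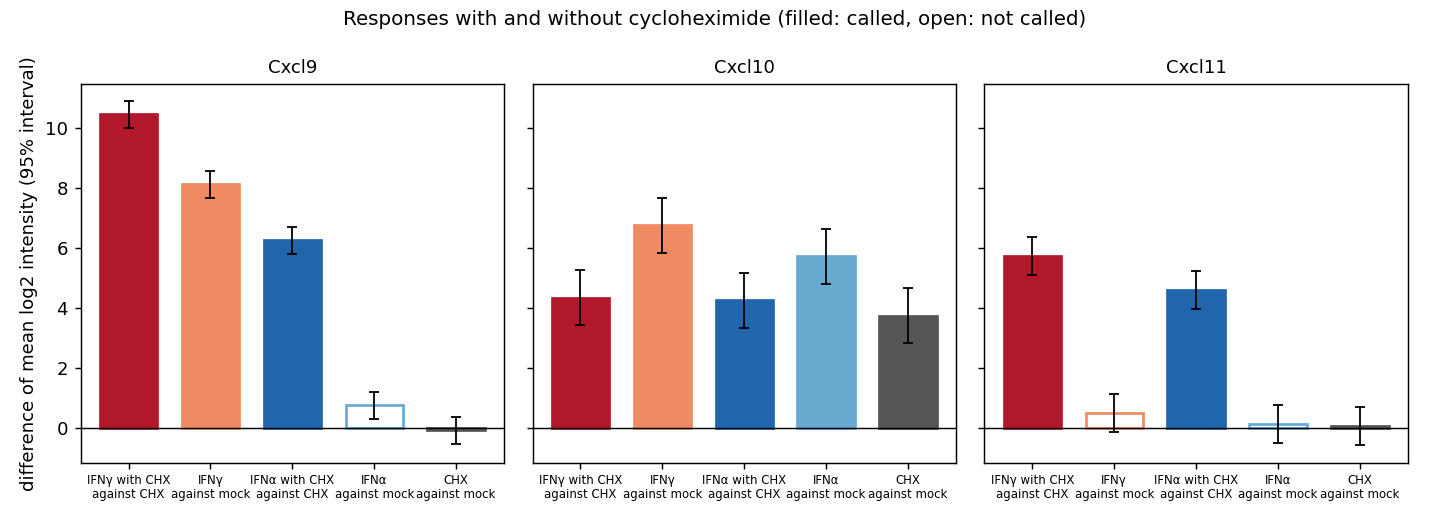
Difference of mean log2 intensity for each main probe set, with the 95% interval of the fit as error bars (3 arrays a treatment); filled bars were called and open bars or bars at 0 were not. Cxcl9 and Cxcl11 had taller bars with CHX than without for both interferons, whereas the bars of Cxcl10 were lower with CHX and its bar for CHX alone reached 3.73.

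Set side by side, the 3 genes were called in different comparisons, each to be read against the share of all tested probe sets that were called in the same direction. By the main probe sets, 1 of 3 members was higher with IFNα than in mock cells (Cxcl10, background 0.461%) and 2 of 3 with IFNγ (Cxcl9 and Cxcl10, background 1.42%). CHX alone raised 1 of 3 (Cxcl10, background 2.51%) and lowered 0 of 3 (background 4.07%). Under CHX, 3 of 3 rose with IFNα (background 0.889%) and 3 of 3 with IFNγ (background 2.57%). CHX plus IFNα was above IFNα in 3 of 3 (background 3.57%), and CHX plus IFNγ was above IFNγ in 2 of 3 (background 2.85%). IFNγ exceeded IFNα in 1 of 3 without CHX (background 1.1%), and under CHX 1 of 3 was higher (background 1.74%) and 0 of 3 lower (background 1.19%). The response gained under CHX in 2 of 3 members for IFNα (background 0.187%) and in 2 of 3 for IFNγ (background 0.198%). A called loss was found in 0 of 3 for either interferon (background 0% for IFNα and 0.0396% for IFNγ). Cxcl10 was the member with a change below 0 here, at an unadjusted p under 0.05 for both interferons. The comparisons share arrays, so these counts are not independent of each other. For Cxcl9 and Cxcl11 they rest on main probe sets whose choice used the responses. The second Cxcl11 probe set was called in none of the 11 comparisons, and the second Cxcl9 probe set had no called response to IFNα.

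The 2 probe sets of a gene did not read alike. The second Cxcl9 probe set (1456907_at) read 964.9, 930.1 and 880.3 with CHX plus IFNγ, against 7.7, 7.6 and 7.6 with CHX alone, which was at least 109-fold (6.92 ± 0.22, limma adjusted p = 3.35e-11). Without CHX, IFNγ gave 18.4, 19.9 and 8.8, against 7.7, 7.3 and 7.5 in mock cells, and this was not called (0.98 ± 0.22, limma adjusted p = 0.0212). Without replicate 3 of IFNγ the change was 1.35 and called (limma adjusted p = 4.67e-06, from 4.67e-06 to 0.672 over all alternatives). It thus stood 62.6-fold higher with CHX plus IFNγ than with IFNγ (5.97 ± 0.22, limma adjusted p = 5.51e-10), where the main probe set stood 4.80-fold higher. The gain of its IFNγ response under CHX, 5.94 ± 0.31 (limma adjusted p = 1.79e-07), was 5.97 with readings below the filter minimum raised to it. Only mock and CHX readings were raised in this comparison, so 5.97 is again the distance of CHX plus IFNγ from IFNγ. With IFNα this probe set did not leave the low range. CHX plus IFNα gave 13.8, 10.4 and 11.2, against 7.7, 7.6 and 7.6 with CHX alone (0.62 ± 0.22, limma adjusted p = 0.626).

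The second Cxcl11 probe set (1419698_at) was called in none of the 11 comparisons (limma; 3 of its 11 unadjusted p were under 0.05). It read 14.7, 16.5 and 21.8 with CHX plus IFNγ, 16.5, 11.1 and 15.9 with CHX plus IFNα, and 14.4, 10.8 and 10.5 with CHX alone. No treatment left the range of 9.4 to 21.8. In mock cells its geometric mean was 9.92, above the 8.22 of the main probe set, and with CHX alone 11.8 against 8.51. The main probe set had the higher mean over all arrays mostly through the combined treatments. There it stood at 455 against 17.4 with CHX plus IFNγ, and at 207 against 14.3 with CHX plus IFNα. Over the 18 arrays the 2 probe sets of Cxcl11 correlated at r = 0.793 and those of Cxcl9 at r = 0.758 (Pearson, log2 intensity). Where each probe set lies in its transcript was not analysed here.

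**Figure D3:**
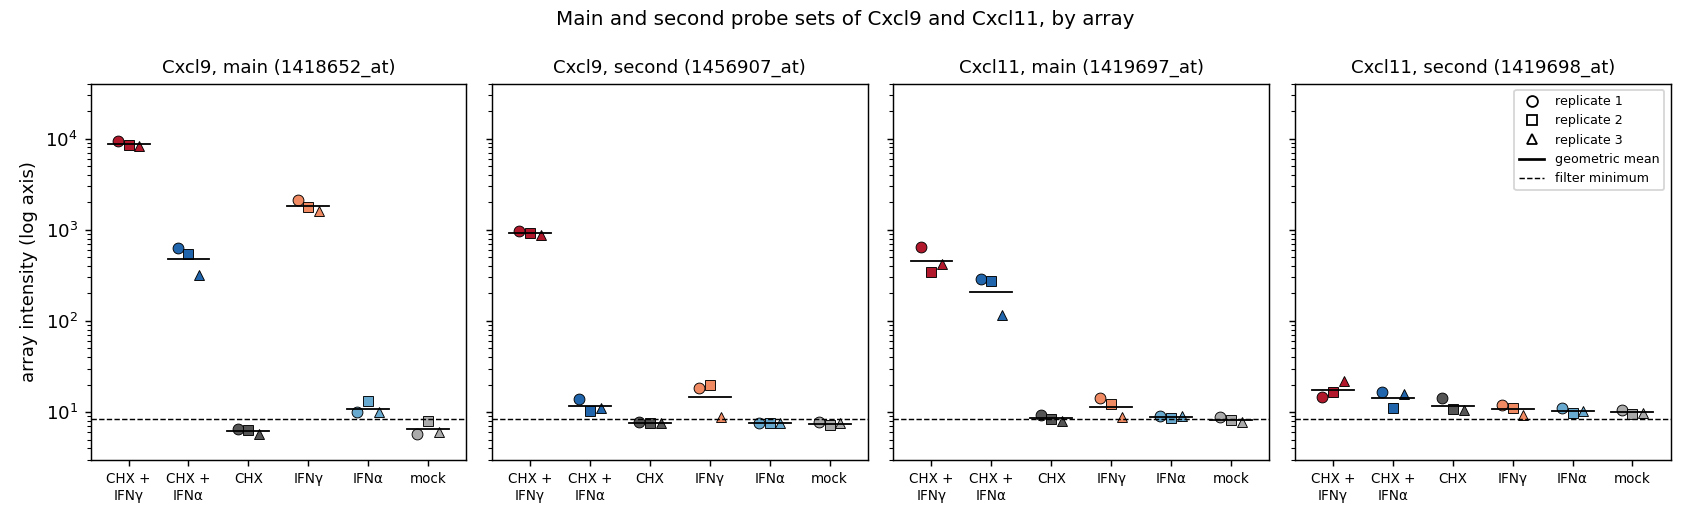
Array intensity (log axis) of the main and the second probe set of Cxcl9 and of Cxcl11 by treatment, with symbols for replicates 1 to 3, a bar for the geometric mean and a dashed line at the filter minimum of 8.5. The second Cxcl9 probe set rose above 880 only with CHX plus IFNγ, and the second Cxcl11 probe set stayed between 9.4 and 21.8 on all arrays.

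Other parts of the CXCR3 axis were low or were not called. Cxcr3 itself read 4.7 to 5.0 on all 18 arrays and did not pass the filter, nor did the scavenging receptor gene Ackr2 (5.5 to 6.1) and the chemokine gene Pf4 (5.2 to 5.8), whose product can also bind CXCR3 in humans. Ackr1, for a chemokine-binding receptor of red cells and venules, read 7.0 to 10, and Dpp4, for a peptidase that truncates the ligands, read 8.2 to 9.9. Ackr3, for a receptor that also binds CXCL11, read 4271.4 to 8505.7. These 3 passed the filter and none was called in any of the 11 comparisons by limma. Over all tested probe sets, 0.187% to 3.57% were called higher and 0% to 5.54% lower, depending on the comparison. For the 3 genes, 4 of 33 unadjusted p were under 0.05, and all 4 were those of Ackr3. Its change was -0.32 with IFNγ against mock (limma adjusted p = 0.327) and -0.35 with CHX plus IFNγ against CHX (limma adjusted p = 0.146). Between the interferons it was -0.50 for IFNγ against IFNα (limma adjusted p = 0.0523) and -0.40 for the same under CHX (limma adjusted p = 0.0826).

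Of the 6 genes listed next to the family, Art3, for an ADP-ribosyltransferase family member, also rose with interferon under CHX. Its probe set 1441752_at read 78.4, 135.9 and 55.0 with CHX plus IFNγ, and 101.5, 63.2 and 34.1 with CHX plus IFNα, against 11.3, 10.5 and 9.5 with CHX alone. The changes were 3.01 ± 0.38 (limma adjusted p = 8.23e-05) and 2.53 ± 0.38 (limma adjusted p = 0.00122). Without CHX it read 42.5, 25.3 and 20.3 with IFNγ and 20.3, 14.3 and 16.2 with IFNα, against 11.3, 9.8 and 10.1 in mock cells. No interferon array overlapped the mock arrays, but neither change was called (1.43, limma adjusted p = 0.0544, and 0.69, limma adjusted p = 0.999). CHX plus interferon exceeded interferon for both IFNγ (2.99-fold, limma adjusted p = 0.00693) and IFNα (3.60-fold, limma adjusted p = 0.00290). The gain of the response under CHX was 1.58 ± 0.53 for IFNγ (limma adjusted p = 0.373) and 1.84 ± 0.53 for IFNα (limma adjusted p = 0.395). Neither gain was called. The other Art3 probe set, 1452474_a_at, stayed between 7.1 and 8.2 and did not pass the filter.

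The further neighbours did not share this pattern. Sdad1, for a nuclear protein, read 786.2 to 1472.4, Nup54, for a nuclear pore protein, read 1117.4 to 2267.6, and Naaa, for a lysosomal amidase, read 14.6 to 22.8. None of these 3 was called in any comparison by limma (4 of 33 unadjusted p were under 0.05), against the same background as for the CXCR3 axis. Nup54 was lower with CHX at an adjusted p below 0.01, but by less than 2-fold. Its change was -0.83 for CHX against mock (limma adjusted p = 5.21e-05). It was -0.64 for CHX plus IFNα against IFNα (limma adjusted p = 0.000377) and -0.60 for CHX plus IFNγ against IFNγ (limma adjusted p = 0.000573). Scarb2, for a lysosomal membrane protein, was called in 1 comparison, lower with CHX plus IFNγ than with CHX plus IFNα (-1.18 ± 0.24, limma adjusted p = 0.00648). Its changes were 0.92 ± 0.24 with CHX plus IFNα against CHX and -0.53 with IFNγ against mock, neither of them called. Ppef2, for a phosphatase, read 6.0 to 6.7 and was not tested.

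**Figure D4:**
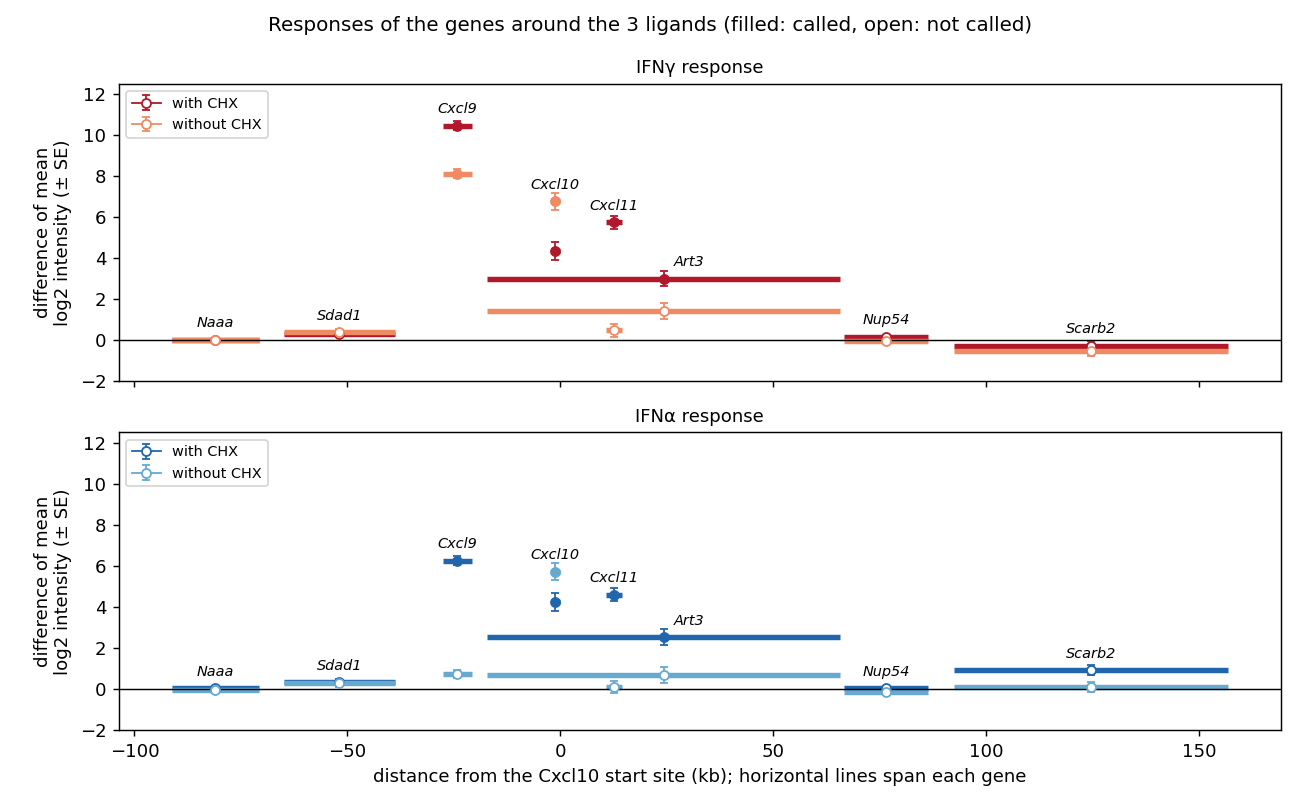
Differences of mean log2 intensity (± SE of the fit) of the genes around the family against distance from the Cxcl10 start site, for IFNγ (top) and IFNα (bottom), each with CHX (dark) and without CHX (light). Horizontal lines span each gene, filled points were called; the 3 chemokines and the overlapping Art3 carry every filled point, and the points of Naaa, Sdad1, Nup54 and Scarb2 are open, with Scarb2 at 0.92 for IFNα with CHX and at -0.53 for IFNγ without CHX.

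Other chemokine genes went different ways. Of 12 listed, 8 were tested. With IFNγ, 2 rose against mock cells (background 1.42%). These were Cx3cl1, for the membrane-bound fractalkine (2.41 ± 0.24, limma adjusted p = 1.73e-05), and Cxcl12, for a ligand of CXCR4 (1.20 ± 0.15, limma adjusted p = 0.000108). With IFNα none was called by limma (1 of 8 unadjusted p was under 0.05, background 0.461% higher and 0.0396% lower). The list's median change was 0.32 with IFNγ and 0.05 with IFNα, against 0.00 and 0.01 over all tested probe sets. CHX alone raised 3 of 8 (background 2.51%), Cxcl2 (4.47 ± 0.39, limma adjusted p = 3.44e-06), Cxcl12 (1.79 ± 0.15, limma adjusted p = 1.94e-06) and Cxcl5 (1.00 ± 0.17, limma adjusted p = 0.000981), and lowered Cx3cl1 (-1.43 ± 0.24, limma adjusted p = 0.000751, background 4.07%). Cxcl2 and Cxcl5 encode neutrophil attractants. Cxcl2 was thus a chemokine gene raised by CHX alone beside Cxcl10, but under CHX it changed by -0.04 with IFNα and by -1.14 with IFNγ, neither of them called.

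Among 18 listed activators of these genes, 16 had a probe set used here and 15 were tested. With IFNα 4 rose (background 0.461%), Stat2 and Irf9 of ISGF3, Irf1 and Irf7. Stat2 changed by 4.55 ± 0.71 (limma adjusted p = 0.00322) and Irf9 by 4.13 ± 0.30 (limma adjusted p = 7.45e-07). With IFNγ 4 rose (background 1.42%), led by Irf1, for a transcription factor that binds ISRE-like elements (5.61 ± 0.24, limma adjusted p = 1.46e-09). The ISGF3 genes were also higher with IFNγ. Medians were 203.3 for Stat2 and 429.8 for Irf9, against 12.3 and 33.4 in mock cells. For Stat3 the median was 5416 with IFNγ, against 1585.5 in mock cells. CHX alone raised 7 (background 2.51%), namely Irf1 (2.74 ± 0.24, limma adjusted p = 3.38e-06) and members or partners of NF-κB and AP-1. Of these, Nfkb2 changed by 2.41 ± 0.24, Relb by 2.11 ± 0.12 and Rel by 2.06 ± 0.24 (limma adjusted p = 1.02e-05, 6.75e-08 and 3.61e-05). The median change of the list with CHX was 0.90, against 0.04 over all tested probe sets. Irf1 shared with Cxcl10 the rise with CHX alone. Its IFNγ response was 2.23 ± 0.34 log2 units smaller with CHX than without (difference -2.23, limma adjusted p = 0.00698).

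Of 14 listed inhibitors 13 were tested. Usp18, for a protease that restrains type I interferon signalling, rose with IFNα (6.62 ± 0.15, limma adjusted p = 1.41e-12) and more under CHX (8.34 ± 0.15 against CHX, limma adjusted p = 5.58e-14). Its gain of 1.72 ± 0.21 for IFNα (limma adjusted p = 0.00138) stood beside 5.52 for Cxcl9 and 4.49 for Cxcl11, without a test between genes. With IFNγ 3 rose (background 1.42%), the SOCS genes Socs1 (3.16 ± 0.36, limma adjusted p = 6.76e-05) and Socs3 (2.51 ± 0.27, limma adjusted p = 4.47e-05) and the NF-κB cofactor gene Bcl3 (3.34 ± 0.46, limma adjusted p = 0.000375). CHX alone raised 4 (background 2.51%), among them Tnfaip3 (3.40 ± 0.21, limma adjusted p = 1.35e-07) and Nfkbie (2.74 ± 0.38, limma adjusted p = 0.000189), whose products restrain NF-κB, and lowered 1, Socs1 (-1.52 ± 0.36, limma adjusted p = 0.00862, background 4.07%). The median change with CHX was 0.54, against 0.04 over all tested probe sets.

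Genes for receptors and kinases of the 2 interferons, 7 in number, were all tested. Ifnar2 rose with IFNγ (1.79 ± 0.19, limma adjusted p = 2.58e-05) and was the only call with IFNγ (background 1.42% higher). No call was made by limma with IFNα or with CHX alone (1 and 3 of 7 unadjusted p were under 0.05). The background was 0.461% higher and 0.0396% lower with IFNα, and 2.51% higher and 4.07% lower with CHX. The 8 genes of proteins that bind or cut cytokine mRNAs, such as Zfp36 and Elavl1, had no call in any of the 11 comparisons by limma (13 of 88 unadjusted p were under 0.05). The background over these comparisons was 0.187% to 3.57% higher and 0% to 5.54% lower. Their median change with CHX was 0.23, against 0.04 over all tested probe sets. Among cytokines that can induce the ligands, Ifnb1 read 4.6 to 5.3 and Ifng 5.5 to 6.3, both below the filter. Il1a rose under CHX with IFNγ (2.13 ± 0.33, limma adjusted p = 0.00069), the only call of the 4 tested in that comparison (background 2.57%).

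The genes with the pattern most like each member were found by Pearson correlation of log2 intensity over the 18 arrays, as a description. The arrays share their treatments, so high values are common. For Cxcl9 they were Gm4951 (0.985), Nlrc5 (0.984), C1s1 (0.981), Apol6 (0.980) and BC023105 (0.979). Nlrc5, for an activator of MHC class I genes, had medians of 754.8 with CHX plus IFNγ, 74.0 with CHX plus IFNα, 6.3 with CHX, 115.9 with IFNγ, 5.1 with IFNα and 5.1 in mock cells. In all 5 genes the IFNγ median stood above that of CHX plus IFNα, as for Cxcl9.

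For Cxcl10 they were Irf1 (0.984), B2m (0.957), Ifi202b (0.944), Ifi204 (0.925) and Ifi47 (0.923). Irf1 had medians of 16526.6 with CHX plus IFNγ, 11268.4 with CHX plus IFNα, 1501.2 with CHX, 12456.0 with IFNγ, 4070.0 with IFNα and 212.9 in mock cells. B2m encodes the light chain of MHC class I, and its median was 4517.0 with CHX plus IFNγ, against 1369.8 in mock cells.

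For Cxcl11 they were Ppm1k (0.971), Trim6 (0.961), Socs2 (0.949), Vmn1r42 (0.941) and H2-D1 (0.923). Vmn1r42 had medians of 98.8 with CHX plus IFNγ, 19.6 with CHX plus IFNα, 7.4 with CHX, 5.4 with IFNγ, 5.5 with IFNα and 5.3 in mock cells, so that, as for Cxcl11, only the combined treatments left the low range. No gene was named for more than 1 member. Between the main probe sets of the members, r was 0.777 for Cxcl9 and Cxcl10, 0.756 for Cxcl9 and Cxcl11, and 0.691 for Cxcl10 and Cxcl11.

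**Figure D5:**
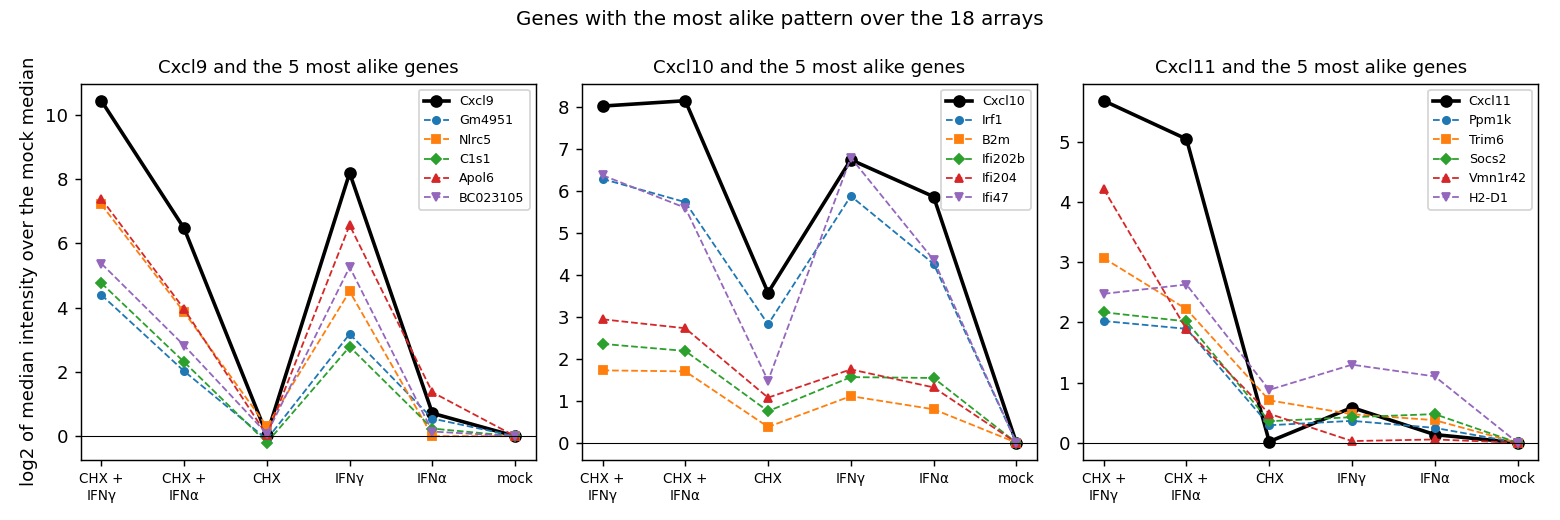
Log2 of the median intensity of 3 arrays over the median in mock cells, by treatment, for each member (black) and the 5 genes with the highest Pearson correlation over the 18 arrays (coloured, dashed). The curves of Cxcl9 peak at CHX plus IFNγ and IFNγ, those of Cxcl10 are raised at all treatments with CHX or interferon, and those of Cxcl11 are highest at the combined treatments.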

How the data were processed

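RNA made in the last 30 min was purified by its 4sU tag and hybridised to 18 Affymetrix MG 430 2.0 arrays, 3 for each of 6 treatments. The authors deposited 1 table of normalized intensity values on a linear scale (gc-RMA in the study's methods, Affymetrix Expression Console in the submitters' processing notes). Groups and replicate numbers were taken from the sample labels. Of 45101 probe sets, 64 array controls were left out, and the 27773 whose highest value reached 8.5 were kept. Of the 45037, 34945 have 1 gene symbol in the platform annotation, 932 several and 9160 none. No raw array data were used here, so background and probe-level effects could not be rebuilt, and low intensities are compressed towards a floor.

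Log2 intensities were fitted in 1 model of the 6 treatments with no covariate (limma 3.58.1 in R 4.3.3, 12 residual degrees of freedom, 2.05 of the prior). Comparisons numbered 11, namely 9 differences between treatments and 2 differences of responses with and without CHX. P-values were adjusted over all 27773 probe sets (Benjamini-Hochberg). P-values rest on 1 spread for each probe set, shared by all 6 treatments and moderated over probe sets. A treatment with a wide spread therefore also widens the SE of comparisons without it. The 3 arrays for each treatment limit the precision. In simulated data with 27773 probe sets, the fit for IFNγ against mock recovered 84 of 100 probe sets changed by a log2 of 2 and 95 of 100 changed by a log2 of 4, with 1 false call. The simulated noise was independent between arrays and had the same spread in all treatments. In the data, deviations of same-numbered arrays from their treatment means correlated at a median r of 0.474, so these rates need not hold.

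Deviations from the treatment means were correlated between same-numbered arrays to see whether replicate numbers pair the samples. Every pair exceeded 0.1 in 6 of 9 comparisons, but not for IFNγ against mock, IFNγ against IFNα, or CHX plus IFNγ against CHX plus IFNα. Alternatives were other added constants (1 and 16), quantile normalization, median centring, no filter, a filter at 32, low values raised to 8.5, only the arrays compared, a replicate block, a variance trend, the mean of a gene's probe sets and leaving out each of the 18 arrays. Leaving out a replicate number from every treatment was added after the data were seen.

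All member probe sets are named. From each of 12 gene lists, genes stand by their highest probe set, up to 4 called members with the largest change per comparison are named, and receptor-axis and neighbour genes are all named. The 5 most correlated genes are named for each member. The members and lists were chosen with earlier results of these data known. Promoter windows and gene positions are from RefSeq tables (GRCm38.p6). Figures were drawn with matplotlib 3.10.9 in Python 3.11.15.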

Additional observations from a re-analysis of the deposited data

Results flagged for a closer look

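Of the responses to interferon, 5 differed between cells with and without CHX by a test of the difference itself (limma, adjusted over all tested probe sets). By the main Cxcl9 probe set the IFNα response was 5.52 ± 0.30 log2 units larger with CHX (SE, limma adjusted p = 7.20e-07), and it was larger within 3 of 3 replicate numbers. For the IFNγ response the gain was 2.34 ± 0.30 (limma adjusted p = 0.00183), and this call was lost whichever replicate number was left out of all treatments (adjusted p up to 0.281). By the second Cxcl9 probe set the gain for IFNγ was 5.94 ± 0.31 (limma adjusted p = 1.79e-07), while that for IFNα was 0.60 ± 0.31 and not called. By the main Cxcl11 probe set the gain was 4.49 ± 0.42 for IFNα (limma adjusted p = 0.000107) and 5.25 ± 0.42 for IFNγ (limma adjusted p = 2.61e-05), and these calls were lost without replicate number 1 or 2 (adjusted p up to 0.141 and 0.0399). By the second Cxcl11 probe set the gains were 0.22 ± 0.25 for IFNα and 0.45 ± 0.25 for IFNγ, neither of them called. Each of the 5 called gains was above 0 within 3 of 3 replicate numbers. No response of Cxcl10 was among them.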

How the results depend on the processing

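No change of a called result in sign was found for the main probe sets under any alternative. With only the arrays of the comparison, Cxcl10 was no longer called for CHX against mock (3.73), CHX plus IFNα against CHX (4.26) or CHX plus IFNγ against CHX (4.34), and fewer residual degrees of freedom were then available. Each of these comparisons also holds the CHX arrays. Their standard deviation of log2 intensity was 1.13, against 0.23 to 0.49 in the other treatments. The part of each in the lost calls was not tested. With a replicate block, 3 further differences passed, Cxcl10 for CHX plus IFNγ against IFNγ (1.31), Cxcl11 for CHX plus IFNγ against CHX plus IFNα (1.13, limma adjusted p = 0.00849, from 0.00849 to 0.362 over its alternatives), and the smaller IFNγ response of Cxcl10 under CHX (-2.42, limma adjusted p = 0.00707). The numbers do not pair all arrays of the last 2, and the replicate block changed no other call of a main probe set. Of 18 arrays 14 matched best, among the other treatments, with an array of their own number.

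Leaving out arrays changed the call of 9 results. Their values without 1 array, or without 1 replicate number in every treatment, ran from 5.49 to 5.98 for Cxcl10 with IFNα against mock, from 3.13 to 4.25 with CHX against mock, from 3.74 to 4.86 with CHX plus IFNα against CHX, from 3.83 to 4.95 with CHX plus IFNγ against CHX, from 2.10 to 2.49 with CHX plus IFNα against IFNα, and from 1.16 to 1.44 with CHX plus IFNγ against IFNγ. The gain under CHX ran from 2.20 to 2.51 for Cxcl9 with IFNγ, from 4.25 to 4.91 for Cxcl11 with IFNα and from 5.01 to 5.48 for Cxcl11 with IFNγ. All calls lost here were lost only without a whole replicate number. Those of Cxcl10 went without replicate 2, those of Cxcl11 without replicate 1 or 2, and that of Cxcl9 whichever number was left out. The only call gained among these results was that of Cxcl10 for CHX plus IFNγ against IFNγ, without replicate 1 of CHX.

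Over all probe sets, fitting only the arrays compared called fewer as higher, 231 in place of 394 with IFNγ against mock, 323 in place of 698 with CHX against mock, 128 in place of 247 and 255 in place of 714 under CHX with IFNα and with IFNγ, and 24 in place of 55 for the gain in the IFNγ response. With the replicate block that last count was 102, without 1 array it was 32 (mock or CHX replicate 2), 34 (IFNγ replicate 3) or 35 (CHX replicate 3), and without replicate number 1, 2 or 3 it was 9, 4 or 10. The count for the gain in the IFNα response, 52 in the full fit, was 29 with only the arrays compared and 7, 4 or 14 without a replicate number. Of the 11 counts of higher calls, all 11 moved by over 1.5 times without replicate number 2, for example to 69 in place of 128 with IFNα and to 125 in place of 394 with IFNγ against mock. Readings below 8.5 limit what Cxcl9 and Cxcl11 can show in mock and CHX cells (3 of 3 arrays for Cxcl9 and 2 of 3 for Cxcl11). Fitted folds against them are therefore not exact, and the lower bounds are those computed with such readings at 8.5.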
